A study of Peromyscus californicus with 17 samples.

Results

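The genes described here encode the proteins of the cytosolic ribosome, measured by RNA-seq in the lungs of Peromyscus californicus, a monogamous mouse. They were chosen by gene symbol, as every gene named Rps or Rpl with a number (and the letter suffixes of paralogs), plus Rpsa, Rplp0, Rplp1 and Rplp2, and the Rps6k kinases were left out. This gave 81 of the 27786 genes in the table: 31 small subunit genes, 45 large subunit genes that include the 3 genes of the P stalk, and 5 tissue-type or duplicated paralogs (Rpl3l, Rpl7l1, Rpl10l, Rpl22l1 and Rps27l). The rule uses symbols and no measured value, while the family itself was picked with earlier results of these data known.

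The 17 animals were males 12 to 15 months old from the IS stock. The 6 bonded animals (B1 to B6) had lived with a female for about 4 months. The 6 bond-disrupted animals (BD1 to BD6) had been paired for as long and were then taken from the mating cage, and their lungs were collected on day 7. The 5 virgins, V2 to V6, had a similar age and were kept in groups, 3 to a cage by the labels and 2 or 3 elsewhere in the study's text, so that bonding status and cage company cannot be told apart. Animals of the same number were relatives, siblings except for the cousins V3 and V4. There was 1 library per animal, and the tissue was whole lung, in which fewer cells of a type and less RNA per cell cannot be told apart.

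A ribosome holds 1 copy of nearly every ribosomal protein, with the acidic P proteins of the stalk as the exception, and the genes for these proteins are known to be expressed together in growing and resting tissues. Their mRNAs begin with a terminal oligopyrimidine tract, through which mTOR signalling and the RNA-binding protein Larp1 control their translation and stability. Most of these genes have many processed copies elsewhere in a mammalian genome, and reads of a copy and of its parent can be hard to tell apart. A change of mRNA level is therefore not a measure of ribosome number, and none was made here.

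Levels are given as FPKM, a count of fragments scaled to kilobases of gene length and to the size of the library. The deposited FPKM had been divided by the lengths of other genes, a different one in each animal's column, and were recomputed with each gene's own length. The effect of this on the ribosomal protein genes was large. Over the 79 of them with a mean of at least 100 counts, the median SD of log2(FPKM + 1) between animals was 1.45 as deposited and 0.228 with the own length. Their highest value was a median of 46.7 times the lowest as deposited and 1.84 times with the own length. All 1377 values of the 81 genes could be recovered, from libraries with depths of 15.4 to 34.1 in units of 1000000 fragments. The length assigned to each value was set beside other genes divided by the same length. For 1368 values there were 3 or more such genes. In all of these, the genes' deviations from their own medians had a median within 0.5 on the log2 scale. The lengths had been chosen in part to keep such deviations small, so this outcome is not an independent check. In the other 9 values, 7 of them of Rps29, 1 or 2 genes shared the length, and their medians ran from −0.72 to 0.94, so that these lengths are less well checked. The surfactant gene Sftpc, of type 2 alveolar cells, was at 12001 to 27993 FPKM, and 5 of the 7 lung markers could be read.

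The ribosomal protein genes were among the abundant transcripts of the lung. Of the 81, 79 were above 1 FPKM in every animal, with means from 27.3 to 897 FPKM and a median of 392 (quartiles 231 and 521). The small subunit genes had a median of 429 FPKM and the large subunit genes, stalk included, 368 FPKM. Rplp0, the P stalk protein that anchors the others, was the highest at 897 FPKM on average. Rpl13a of the large subunit followed with 784 FPKM and Rps14 of the small subunit with 775 FPKM.

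The ranges of these neighbours overlapped widely, but the genes were read in the same animals and share their level. Within animals, Rplp0 lay below Rpl13a only in B2, B4 and V4, and below Rps14 only in B2, B4 and BD1. The order of Rpl13a and Rps14 is not firm, since Rps14 was higher in B2 (945 against 938 FPKM) and Rpl13a in V4. Rplp0 ran from 624 (V2) to 1076 FPKM (V4), Rpl13a from 562 (V2) to 1187 FPKM (V4), and Rps14 from 541 (V2) to 1065 FPKM (V4). In addition, the counts of Rps14 and Rpl13a were whole numbers in 3 and 5 of the 17 animals, against 12 for Rplp0. A count that is not whole may hold fragments counted in part, and how the fractions arose was not tested. Counts were recovered in steps of 0.01 and called whole where nothing remained after the point, and the lengths had been chosen in part to favour whole counts. Of all values of the ribosomal protein genes 70.8% were whole and 25.5% ended in 0.5, while 80.4% were whole in other genes with a mean of at least 100 counts. Of the members, 16 had whole counts in all 17 animals and 24 in fewer than 10 animals.

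At the low end stood the paralogs and a few genes whose own length is long. Rpl7l1, a paralog of Rpl7, had 27.3 FPKM over 2792 bases, and Rpl27 had 42.3 FPKM over 1951 bases. Rpl12 had 52.0 FPKM over 6081 bases and Rps20 had 74.98 FPKM over 3314 bases, although the median length of the 79 genes was 686 bases. These lengths are those that the deposited values were made with. The mean counts behind these 4 values were 1691, 1808, 7001 and 5462 per animal, so that none of them rests on few fragments.

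**Figure D1:**
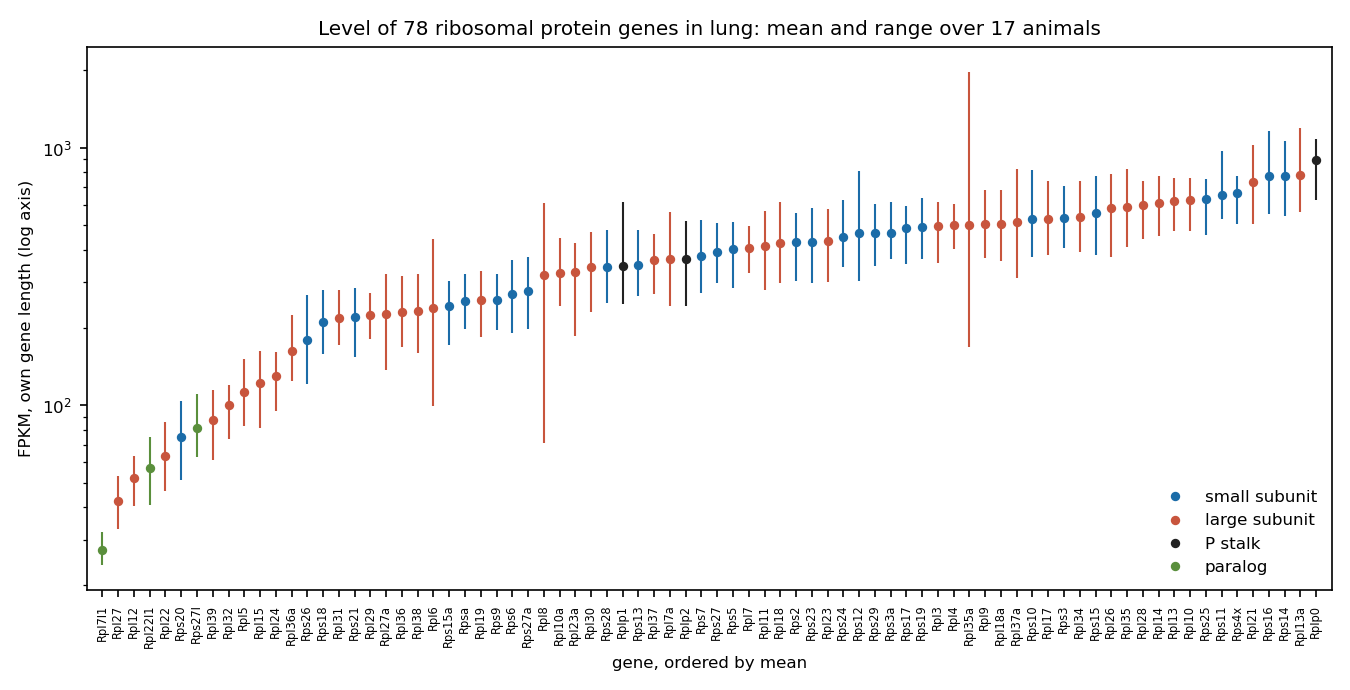
Mean (point) and lowest to highest value over 17 animals (line) of 78 ribosomal protein genes in FPKM with the gene's own length, on a log axis, in the order of their means and coloured by class. Most lines are short, while Rpl35a (169 to 1971 FPKM), Rpl8 (71.1 to 606) and Rpl6 (98.8 to 441) span wide ranges.

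The P stalk genes recruit elongation factors to the ribosome. Rplp1 was at 346 ± 81.8 FPKM, Rplp2 at 368 ± 72.4 FPKM and Rplp0 at 897 ± 131 FPKM (SD between animals, n = 17). Within animals, Rplp1 was above Rplp2 in B4, BD6, V2, V3 and V6 and below it in the others. Rplp1 stood highest in V6, with 615 FPKM against 246 to 399 FPKM in the other 16 animals. Rplp0 and Rplp2 showed no such step in V6, with 939 and 384 FPKM.

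The paralogs fell into 3 that the lung expressed and 2 near zero. Rps27l, a paralog of Rps27 known as a p53 target, was at 62.6 (BD6) to 111 FPKM (BD1), against 298 to 509 FPKM for Rps27. Rpl22l1, a paralog of Rpl22, was at 40.9 (V3) to 75.5 FPKM (V4), close to the 63.5 FPKM mean of Rpl22, whose own length is 2212 bases against 535. Rpl7l1 was the steadiest of all members, at 23.8 (BD6) to 32.2 FPKM (BD1), with an SD of 0.11 on the log2(FPKM + 1) scale. Rps4x, the X-linked copy of Rps4, was at 503 (V2) to 778 FPKM (V4) and belongs by its level to the main genes.

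Rpl3l replaces Rpl3 in heart and skeletal muscle. It lay between 0.25 (BD6) and 0.95 FPKM (B6), and below 1 FPKM in every animal it was the one member that did not pass the filter for testing. Its 2 highest values were in B6 (0.95 FPKM) and B4 (0.89 FPKM). The atrial myosin gene Myl7 was at 20.6 to 218 FPKM, highest in B6, and Nppa, which encodes the atrial natriuretic peptide, at 0.046 to 2.61 FPKM, highest in B4. Over the 5 of 6 heart markers that could be read, the median deviation was highest in B6, followed by V5 (1.10), BD2 (0.58), BD1 (0.52) and B4 (0.44). Rpl3l was at 0.54 FPKM in V5, 0.37 in BD2 and 0.53 in BD1. The summed level of these markers was 50.7 to 518 FPKM in bonded, 87.8 to 298 in bond-disrupted and 122 to 389 in virgin animals, and none was at 0 in every animal. Myh6 was not analysed here, and the part of heart tissue in the Rpl3l signal was not tested.

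Rpl10l, an intronless copy of Rpl10 known from the testis, was listed at 0 in 15 of the 17 animals. BD6 had 55 counts, or 3.74 FPKM, and B2 had 1 count. BD6 was also highest in the skeletal muscle actin gene Acta1, with 21.4 FPKM. The 3 skeletal muscle markers together reached at most 22.5 FPKM in bond-disrupted animals, so that Acta1 made up nearly all of this sum. Any link of Acta1 to Rpl10l was not tested. Rpl10l passed the filter through BD6 alone. It stands among the 80 tested members in the counts and the plot of group differences, and nothing is read from its fitted fold change.

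The 73 members of the ribosome proper that remain without the paralogs and without Rpl35a, Rpl8 and Rpl6 (set apart after their values were seen) had SDs of log2(FPKM + 1) between animals from 0.16 to 0.33, with a median of 0.22. Over all 13024 genes with a mean of at least 100 counts the median SD was 0.185. Rpl29 (0.16) and Rpl10 (0.16) of the large subunit were the steadiest beside Rpl7l1. Rpl29 was at 181 (V2) to 271 FPKM (BD1) and Rpl10 at 473 (V2) to 764 FPKM (V4).

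Most of that variation was shared. Over the 17 animals, the median Pearson r between 2 of these 73 genes was 0.76, and r was positive in 99.9% of the pairs. These correlations are a description, since the genes share their libraries and scaling. When the median deviation of the 73 genes in each animal was taken off, the median SD fell from 0.22 to 0.10. The genes thus moved up and down together from animal to animal, and the common level was the larger part of the variation.

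The lowest and the highest common level were both found in virgins. In V2 the median member lay 0.43 below its mean on the log2 scale, a level of 0.740 times the mean, and in V4 it lay 0.36 above, or 1.28 times. V4 exceeded V2 by a factor of 1.73 in these medians, and 77 of the 80 tested members were higher in V4 than in V2. V2 was the lowest of all animals in 65 of the 73 genes and V4 the highest in 45 of them. The other virgins were at −0.28 (V3), 0.02 (V5) and −0.04 (V6).

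The bonded animals ran from −0.13 (B1) to 0.24 (B2), and the bond-disrupted animals from −0.13 (BD4) to 0.29 (BD1). BD1 held the highest value of 21 members and B2 that of 7. Bonded animals had an SD of 0.13 (n = 6), bond-disrupted animals 0.15 (n = 6) and virgins 0.30 (n = 5) in this common level, and the range of the virgins covered that of both other groups. The small and the large subunit moved alike, with medians of −0.46 and −0.43 in V2 and of 0.42 and 0.32 in V4.

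Some members kept less closely to the common level, and these were named after their values were seen. After that level was taken off, the SD was smallest in Rps3 and Rps14 of the small subunit (0.05 each). Among the 73 genes it was largest in Rplp1 (0.27), Rpl30 (0.25), Rpl26 (0.24) and Rpl15 (0.23). Rpl30 was at 230 FPKM in BD3 and 472 FPKM in V4, and it was low in BD1 (289 FPKM), where most members were high. Rpl26, a neighbour of the exit tunnel that also binds p53 mRNA, was at 381 FPKM in B1 and 376 FPKM in V2, against 481 to 790 FPKM in the other 15 animals. Rpl15 was at 81.4 FPKM in B3 and 82.4 FPKM in BD4, against 92.4 to 161 FPKM in the others. Counts of Rpl30 and Rpl26 were whole in all 17 animals and those of Rpl15 in 15.

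A few members with many fractional counts departed from the common level in single animals. Rps12 was at 807 FPKM in V4 and at 304 to 541 FPKM elsewhere, with whole counts in 8 of the 17 animals. Rpl23a went against V4, with 298 FPKM there and 425 FPKM in B2, and its counts were whole in 4 animals.

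**Figure D2:**
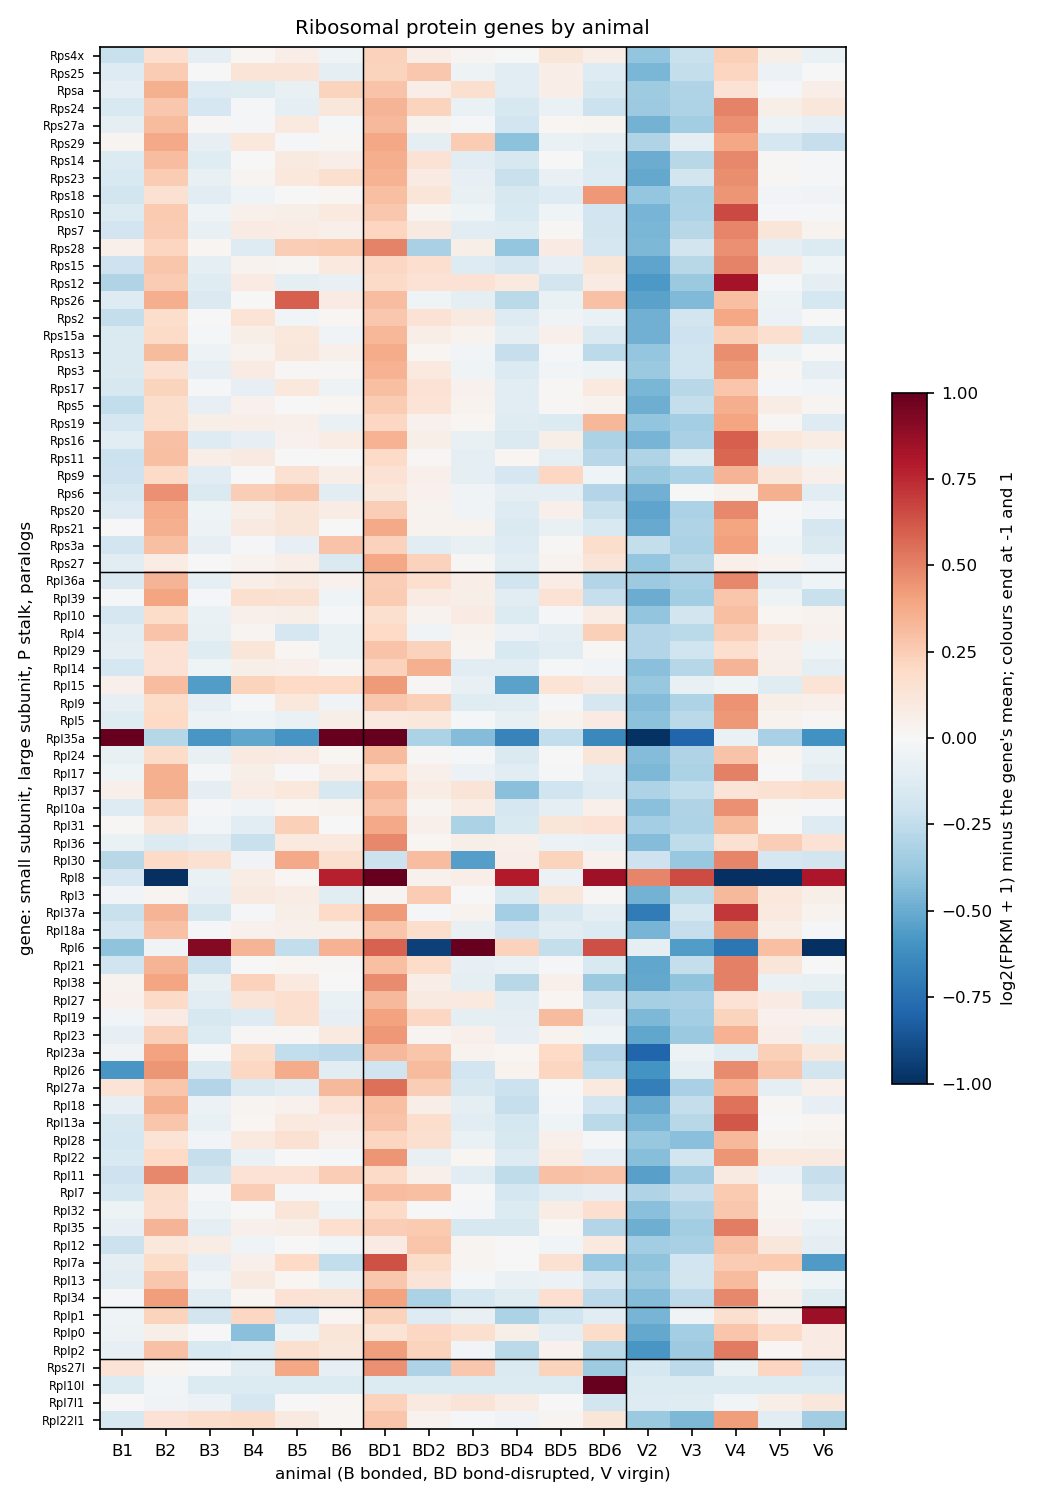
Deviation of log2(FPKM + 1) from the gene's own mean over 17 animals, for 79 of the 80 tested ribosomal protein genes (rows, by class) in each animal (columns, by group). The column of V2 is blue and those of V4, B2 and BD1 are red in nearly every row, and Rpl35a, Rpl8, Rpl6 and Rpl10l follow patterns of their own.

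As a share of all recovered counts, the members took 2.43% ± 0.23 in bonded (SD, n = 6), 2.38% ± 0.24 in bond-disrupted (n = 6) and 2.27% ± 0.51 in virgin animals (n = 5). The bonded animals ran from 2.16% to 2.82% with a median of 2.39%, and the bond-disrupted ones from 2.13% to 2.82% with a median of 2.29%. The virgins were at 1.73% (V2), 1.94% (V3), 3.06% (V4), 2.37% (V5) and 2.26% (V6). The group means thus differed by less than the spread within any group.

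The same order appeared in genes of the ribosome that the symbols do not catch. Fau, which encodes a ribosomal protein fused to a relative of ubiquitin, was at 524 FPKM in V2 and 930 FPKM in V4. Rack1, a scaffold protein bound to the small subunit, was at 161 and 271 FPKM. In both genes V2 was the lowest and V4 the highest of the 17 animals.

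Other transcripts known for terminal oligopyrimidine tracts varied in the same sense with a smaller range. Over 17 such genes other than members the median deviation was −0.26 in V2 and 0.20 in V4. Eef1a1, which brings aminoacyl-tRNA to the ribosome, was at 1920 FPKM in V2 and 2930 FPKM in V4, Eef2, the translocation factor, at 396 and 588 FPKM, and Tpt1 at 983 and 1694 FPKM, again the lowest and the highest values. Pabpc1, the poly(A)-binding protein, did not share this, with 463 FPKM in V2 and 427 FPKM in V4. The 33 tested translation factors ranged from −0.16 (V2) to 0.13 (BD1) and the 43 ribosome biogenesis genes from −0.09 (V3) to 0.12 (BD1).

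The regulators of the family showed no such range. The median of 25 genes of mTOR signalling, Myc and related control lay between −0.13 (B2) and 0.09 (V2). Mtor itself was highest in V2 at 16.1 FPKM and lowest in BD1 at 9.94 FPKM. In V2 and V4, Larp1 was at 19.6 and 16.0 FPKM, and Rps6kb1, the kinase of the ribosomal protein Rps6, at 10.7 and 9.81 FPKM. Rps6 itself, a member, was at 191 FPKM in V2 and 273 FPKM in V4. Myc was highest in V4 with 4.85 FPKM, against 3.01 FPKM in V2. Npm1, a nucleolar chaperone, had 31.6 FPKM in V2 and 40.9 FPKM in V4.

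Short abundant transcripts other than members differed between animals as well. The 270 tested genes under 1000 bases with a mean of at least 50 FPKM had a median deviation of −0.29 in V2, 0.12 in V4 and 0.38 in BD1, while 1094 longer genes at that level ranged from −0.07 to 0.16. The mitochondrial ribosome (76 genes) was at −0.19 in V2, 0.07 in V4 and 0.32 in BD1, and the respiratory chain (65 genes) at −0.30, 0.04 and 0.41. V2 was thus low and BD1 high in these groups too, whereas the high level of V4 was larger in the ribosomal protein genes. What part RNA integrity or library preparation had in the common level was not tested.

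**Figure D3:**
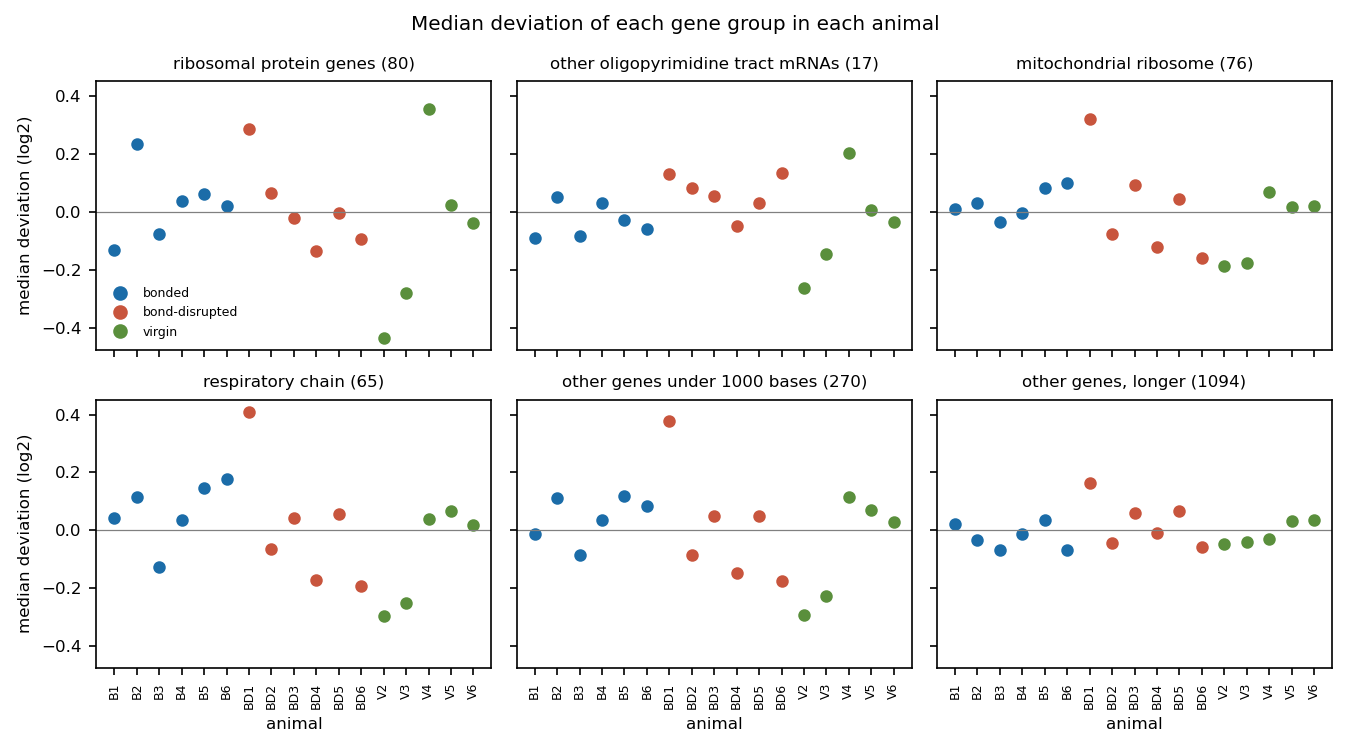
Median deviation from the gene means on the log2(FPKM + 1) scale, 1 point per animal coloured by group, for the ribosomal protein genes and 5 other groups of genes, with the number of genes in brackets. V2 is at −0.43 and V4 at 0.36 in the ribosomal protein genes, and V4 is at 0.04 in the respiratory chain.

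Immune cell markers are given beside this, since lymphocytes are rich in ribosomal protein mRNA. The 5 B cell markers summed to 129 FPKM in V2 and 115 FPKM in V4, in a range of 30.0 to 114 FPKM in bonded, 22.5 to 155 in bond-disrupted and 52.6 to 129 in virgin animals. The 2 of 5 T cell markers that could be read summed to 28.5 FPKM in V2 and 43.6 FPKM in V4, the highest value of the 17 animals. None of these markers was at 0 in every animal. V2 and V4, at the opposite ends of the ribosomal protein level, both lay above the highest bonded animal in B cell markers. Their depths were 21.9 and 20.7 in the same units. The ciliated cell gene Foxj1, one of the lung markers, was lowest of the 17 animals in V2 (10.7 FPKM). It was at 54.6 FPKM in V4, second to B6 (68.8 FPKM), with 38.8 FPKM in B2 and 27.2 FPKM in BD1. The common level of B6 was only 0.02, and V6, with 42.1 FPKM of Foxj1, was at −0.04. The 5 lung markers that could be read, which are dominated by surfactant genes, summed to 21590 FPKM in V2 and 19195 FPKM in V4. The part of lymphocytes or of ciliated cells in the common level was not tested.

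Differences between groups were tested with limma on log2(FPKM + 1) over 15798 genes, and a gene was called when it changed at least 2-fold with an adjusted p (Benjamini-Hochberg) under 0.1. No member and no other gene was called in any of the 3 comparisons (0% of the genes tested in each). The lowest adjusted p among the members was 0.881 for bond-disrupted against bonded, 1 for virgin against bonded and 0.951 for virgin against bond-disrupted animals. Unadjusted p-values are therefore given as a description of the order of genes.

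Bond-disrupted and bonded animals had nearly the same levels of ribosomal protein mRNA. Of the 80 tested members 38 were higher and 42 lower after disruption, where 51.6% of all genes tested were higher and 48.4% lower, and the median log2 fold change was −0.004 against 0.005 over all genes. None had an unadjusted p under 0.05, compared with 2.75% of all genes that were higher and 3.04% that were lower at that level. The direction counts moved both ways with the setting. After quantile normalization 27 of the 80 members were higher, after least-squares removal of the length effect 52 of 79, without BD1 22, without B1 24, without B2 54 and without BD4 56.

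The smallest p-values in this comparison belonged to Rpl7l1, Rps27, Rpl8 and Rplp0. Rpl7l1 had 24.2 to 27.7 FPKM in bonded (median 26.9) and 23.8 to 32.2 FPKM in bond-disrupted animals (median 29.0), a log2 fold change of 0.10 (standard error 0.07), which was 0.06 without BD1. Rps27 had 352 to 410 FPKM (median 394) and 362 to 509 FPKM (median 412), a log2 fold change of 0.13 (0.09), which was 0.07 without BD1 and 0.07 after quantile normalization. Rplp0 had 664 to 967 FPKM (median 869) and 832 to 1025 FPKM (median 983), a log2 fold change of 0.17 (0.13), which was 0.10 without B4. In each of these genes the groups overlapped, and limma's adjusted p was 0.881. Rpl8, with a log2 fold change of 0.66 (0.50) and the same adjusted p, is described below with its steps between animals, and its value was 0.35 without B2.

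In virgins the members leaned downwards by a small amount. Against bonded animals 75 of 80 members were lower, where 48.2% of all genes were lower and 51.7% higher, with a median log2 fold change of −0.10 against 0.005 over all genes. Against bond-disrupted animals 72 of 80 were lower, where 48.3% of all genes were lower and 51.6% higher, with a median of −0.09 against 0.005. Both comparisons use the same 5 virgins, and the members share their level in each animal, so that these counts are not those of independent genes. At an unadjusted p under 0.05, 2 members were lower in the first comparison and 1 in the second, against 1.47% and 2.05% of all genes tested. The first count fell to 0 without B2, B4, B5, V2, V3 or V6 and to 1 without B6, BD2, BD3, BD4 or BD5, the second fell to 0 without BD1, V2 or V3, and both were 0 when the 2 groups compared were fitted alone. No member was higher at that level in either, against 2.02% and 2.15% of all genes.

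This lean depended on single animals. Without V2, 42 of 80 members were lower than in bonded animals (median −0.005) and 44 of 80 lower than in bond-disrupted ones (median −0.02). Without V3, 59 and 58 of 80 were lower, with medians of −0.04 and −0.04. Without B2, 64 were lower than in bonded animals, with a median of −0.05, and without BD1, 59 were lower than in bond-disrupted ones, with a median of −0.05. Without V4, 77 and 79 of 80 were lower, with medians of −0.20 and −0.21, and 19 members in each comparison were lower at an unadjusted p under 0.05, where 2.23% and 2.25% of all genes were in the same fits, with the lowest adjusted p among the members at 0.844 and 0.931. Without both, the setting added after the values were seen, 73 and 74 were lower, with medians of −0.12 and −0.12. After quantile normalization 67 and 61 members were lower, and after least-squares removal of the length effect 53 and 65 of 79. With family as a block in the fit, 1 and 0 members had an unadjusted p under 0.05, in place of 2 and 1.

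**Figure D4:**
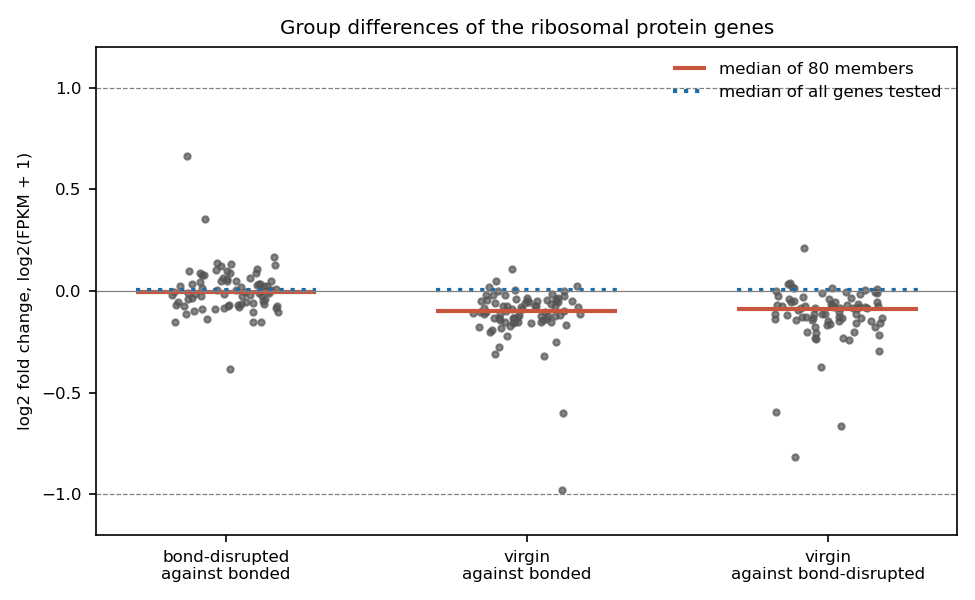
Log2 fold change of each of the 80 tested ribosomal protein genes (points) in 3 comparisons on the log2(FPKM + 1) scale, with their median (solid line), the median of all 15798 genes tested (dotted line) and the 2-fold limits (dashed lines). The medians of the members are −0.004, −0.10 and −0.09, and no point passes a 2-fold limit.

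Rpl11, a large subunit protein that also binds Mdm2, had the smallest p against bonded animals. The virgins were at 279 (V2), 320 (V3), 433 (V4), 390 (V5) and 347 FPKM (V6), the bonded animals at 351 to 568 FPKM (median 449) and the bond-disrupted ones at 340 to 498 FPKM (median 443). The virgins overlapped with both groups. The log2 fold change was −0.32 (standard error 0.14, limma adjusted p = 1, unadjusted p under 0.05) against bonded and −0.29 (0.14, adjusted p = 0.951) against bond-disrupted animals, and the first was −0.21 after least-squares removal of the length effect.

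Rpl39, one of the smallest ribosomal proteins, was at 61.0 (V2), 67.6 (V3), 105 (V4), 83.5 (V5) and 73.8 FPKM (V6) in virgins and at 84.1 to 114 FPKM (median 91.0) in bonded animals. All virgins except V4 lay below the bonded range. Its log2 fold change was −0.28 (standard error 0.13, limma adjusted p = 1, unadjusted p under 0.05), and −0.17 after least-squares removal. Rps26, which lies near the mRNA exit of the small subunit, was at 121 (V2), 129 (V3), 216 (V4), 169 (V5) and 155 FPKM (V6), against 159 to 266 FPKM (median 180) in bonded animals. Its log2 fold change was −0.31 (0.17, adjusted p = 1).

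Rpl22l1 was at 43.4 (V2), 40.9 (V3), 75.5 (V4), 51.9 (V5) and 44.0 FPKM (V6). Bonded animals had 50.2 to 64.6 FPKM (median 61.2) and bond-disrupted animals 55.0 to 68.4 FPKM (median 57.5). Of the virgins, V4 lay above both ranges, V5 within the bonded range and the other 3 below both. The log2 fold changes were −0.25 (standard error 0.13, limma adjusted p = 1) and −0.24 (0.13, adjusted p = 0.951), and they were −0.40 and −0.39 without V4.

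Rps27, a zinc finger protein of the small subunit, was the member with the smallest p between virgin and bond-disrupted animals. The virgins were at 298 (V2), 322 (V3), 403 (V4), 400 (V5) and 380 FPKM (V6), against 362 to 509 FPKM (median 412), and the 3 higher virgins lay within the range of the bond-disrupted animals. The log2 fold change was −0.24 (standard error 0.10, limma adjusted p = 0.951, unadjusted p under 0.05), and −0.13 after least-squares removal. Rpl6, described below, had a log2 fold change of −0.66 (0.33, limma adjusted p = 0.951) in the same comparison.

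Rpl35a, Rpl8 and Rpl6 had the largest SDs of log2(FPKM + 1), at 1.15, 0.95 and 0.63, where no other gene of the ribosome proper exceeded 0.33. The values of Rpl35a and Rpl8 fell into levels that did not follow bonding status, and those of Rpl6 spread widely. For each of them, 8 or more other genes had been divided by the same length in each animal. The medians of these genes deviated by −0.19 to 0.20 on the log2 scale. Lengths had been chosen in part to keep such deviations small, so these values are not an independent check.

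Rpl35a stood at 1488 FPKM in B1, 1717 in B6 and 1971 in BD1, and at 169 to 320 FPKM in the other 14 animals. The median of the 3 was 7.51 times that of the others, and there was no animal in between. B1 and BD1 are of the same family, while BD6 and V6, relatives of B6, were at 214 and 220 FPKM. In RefSeq, Iqcg, which encodes a protein of sperm and ciliary axonemes, lies next to Rpl35a, with 129 bases between them. Iqcg was at 55.4 to 116 FPKM in the same 3 animals and at 2.38 to 8.38 FPKM in the other 14, a ratio of medians of 15.2. Foxj1 was at 25.3 FPKM in B1, 68.8 in B6 and 27.2 in BD1, against 10.7 to 54.6 FPKM in the others. Iqcg was looked at after the step of Rpl35a was seen, and what raised both genes was not tested.

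Rpl8, whose protein lies close to the peptidyl transferase centre of the large subunit, had 3 levels. B2, V4 and V5 were at 71.1 to 81.2 FPKM, 7 animals (B1, B3, B4, B5, BD2, BD3 and BD5) at 242 to 286 FPKM, and the other 7 (B6, BD1, BD4, BD6, V2, V3 and V6) at 381 to 606 FPKM. V4, with the highest common level of the family, thus had one of the lowest levels of Rpl8. The bond-disrupted animals lacked the lowest level and the virgins the middle one.

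A gene without a name, LOC128111489, ran against Rpl8 step for step. It is a protein-coding gene with 1 transcript and 846 bases in RefSeq, and its recovered length is 846 bases. It had 12 to 34 counts in the 7 animals with the highest Rpl8, 1465 to 3245 counts in the 7 of the middle level, and 4343 to 6326 counts in B2, V4 and V5. A further such gene of 850 bases, LOC128108007, showed the same order with smaller steps, at 33.2 to 47.5, 82.7 to 92.3 and 134 to 146 FPKM. Both were found by a search for genes opposite to Rpl8 after its values were seen.

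The counts of the 3 genes were also added together, as a description, since both LOC genes were picked for running opposite to Rpl8 and a steadier sum follows in part from that choice. Rpl8 alone differed 8.53-fold between its highest and its lowest animal in counts scaled to library size. The sum with LOC128111489 differed 1.96-fold, and the sum with both genes 1.58-fold, from 394 to 622 counts per 1000000 fragments. No sequence of the 3 genes was compared here, and whether they share fragments was not tested. The differences of Rpl8 between groups follow from how many animals of each level a group holds, with log2 fold changes of 0.66 (standard error 0.50), −0.15 (0.53) and −0.82 (0.53) in the 3 comparisons, and limma's adjusted p of 0.881, 1 and 0.951.

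Rpl6, which encodes another large subunit protein, varied without clear steps. The bonded animals ran from 165 (B1) to 414 FPKM (B3) with a median of 245, and the bond-disrupted ones from 114 (BD2) to 441 FPKM (BD3) with a median of 294. The virgins were at 204 (V2), 148 (V3), 132 (V4), 269 (V5) and 98.8 FPKM (V6). The siblings B3 and BD3 held the highest values of their groups. BD1, a sibling of B1, was at 330 FPKM, and B2, a sibling of BD2, at 213 FPKM, so that the lowest values of the bonded and bond-disrupted animals were not shared by siblings. The groups overlapped.

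**Figure D5:**
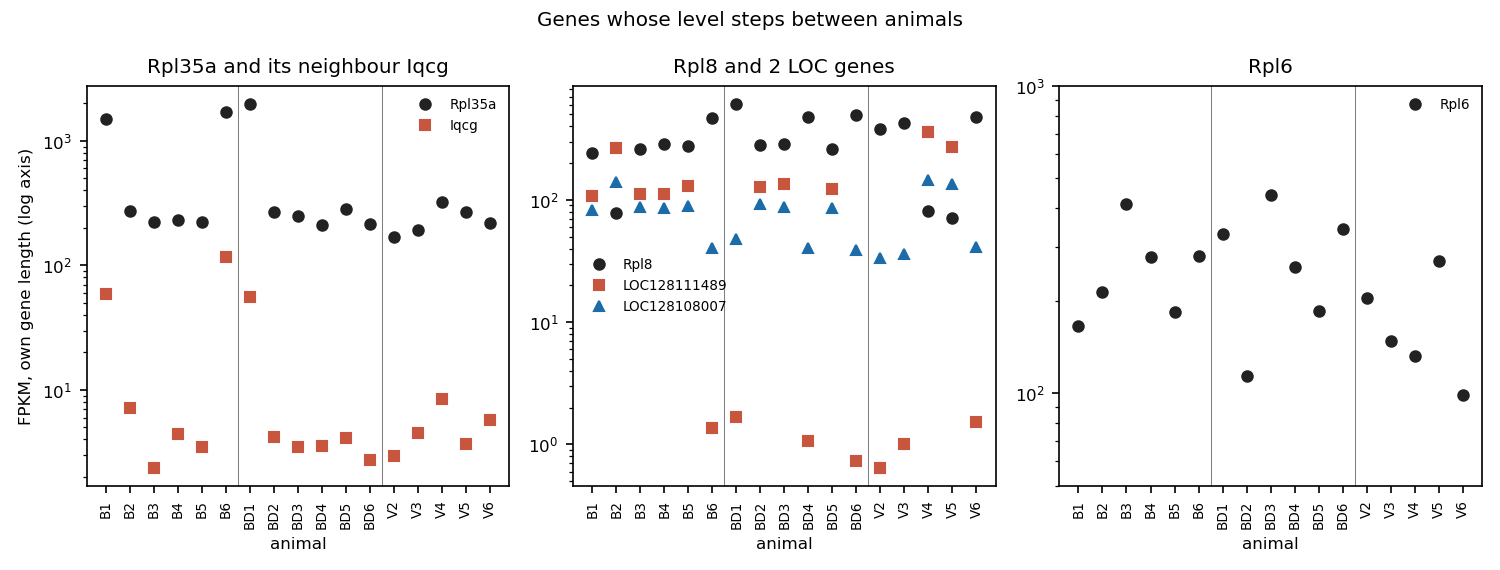
FPKM with the gene's own length (log axis) in each of 17 animals for Rpl35a with its neighbour Iqcg, for Rpl8 with LOC128111489 and LOC128108007, and for Rpl6, with lines between the groups. Rpl35a and Iqcg are high in B1, B6 and BD1, Rpl8 is lowest where both LOC genes are highest (B2, V4 and V5), and Rpl6 spreads from 98.8 to 441 FPKM.

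In the other lists of translation genes, no gene reached an adjusted p under 0.1 in limma. Of 33 translation factors, 4 were higher at an unadjusted p under 0.05 in bond-disrupted than in bonded animals, where 2.75% of all genes tested were, with a median log2 fold change of 0.08. In virgins 4 of the 33 were lower than in bond-disrupted animals at that level, where 2.05% of all genes were, with a median of −0.09. The median deviation of this list was highest in BD1 (0.13) and lowest in V2 (−0.16) and V3 (−0.13). The first count was 2 without B4, B5, BD1 or BD6 and 1 without BD3, after quantile normalization or after least-squares removal, and its median was 0.05 without BD1 and 0.04 after quantile normalization. The second count was 2 without BD3 or V6, 8 without BD2 and 9 without V4, and its median was −0.05 after quantile normalization. With family as a block both counts were 3. Genes of one list share their level in each animal, so these counts are not those of independent genes. Of 43 ribosome biogenesis genes (median 0.05), 1 was higher after disruption at an unadjusted p under 0.05, where 2.75% of all genes tested were. Among 76 mitochondrial ribosome genes (median −0.02), 0 were higher at that level. At any size, 11 of the 43 and 45 of the 76 were lower, where 48.4% of all genes were. In virgins, 64 of the 76 were lower than in bonded animals (median −0.08), where 48.2% of all genes were. Against bond-disrupted animals 60 were lower (median −0.07), where 48.3% of all genes were. Of the 25 regulators, 2 were higher and 1 lower after disruption at an unadjusted p under 0.05, where 2.75% and 3.04% of all genes were. At any size 8 of the 25 were lower, where 48.4% of all genes were.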

How the data were processed

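Lung RNA of 17 animals was sequenced from directional libraries, and the authors deposited FPKM per gene, 1 column per animal with 0 columns left over. Per the labels' processing notes, the tools were FastQC, Trim Galore 0.4.5, STAR 2.7.2, SAMtools 1.5 and featureCounts of Subread 1.5.3. The genome build is not given in the sources used here. All 27786 symbols match RefSeq (assembly ASM782708v3), whose lengths and neighbours were used without coordinates.

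Each deposited FPKM value had been divided by the length of a gene further up the table, 1 row further in each later column. Depths and lengths were solved as those at which values become multiples of 0.01 counts, and 26862 of 27787 lengths were settled. The recovered counts summed to 0.970 to 1.04 of the depth. FPKM with the own length was tested as log2(FPKM + 1) for the 15798 genes that reached 1 FPKM in any animal, with limma 3.58.1 in R 4.3.3, the 3 groups in one fit, two-sided, with Benjamini-Hochberg adjustment. Adding 1 understates changes of low genes. No count model was the main test, and voom on the recovered counts was an alternative. Steps were tested on simulated data. Python 3.11.15, numpy 2.4.6, pandas 2.3.3, numba 0.67.0 and matplotlib 3.10.9 were used.

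The members, gene lists and tests were chosen with earlier results of these data known. Named were, among the tested members, the 3 highest and 3 lowest by mean, the 3 with the largest and smallest SD, the 4 with the smallest p per comparison, the paralogs and the P stalk. Values of 2 single genes are not reported here. Numbers of animals mark families in the paper. Deviations from group means correlated above 0.1 in 7 of 16 pairs of the same number (r from −0.333 to 0.414), which included all pairs of a bonded with a bond-disrupted sibling. Alternatives were 12 settings, 17 fits without 1 animal each and 2 settings added after the values were seen. P-values measure the spread between animals, and depth limits low values, with counting error alone known from counts.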

Additional observations from a re-analysis of the deposited data

Results flagged for a closer look

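Values far from the others of their group were looked for in 66 sets of 5 or 6 animals (the 21 named genes and the share of counts, in 3 groups). Chance marks about 1 in 20 sets of values with no selection, a rate that does not apply here, since the named genes were chosen in part for a large SD and Rpl10l passed the filter through BD6 alone. There were 5 such values. Among bonded animals, B4 had 664 FPKM of Rplp0 against 855 to 967 FPKM in the other 5, B2 had 78.8 FPKM of Rpl8 against 242 to 468 FPKM, and B2 had 0.0796 FPKM of Rpl10l, a single count, against 0. Among bond-disrupted animals, BD1 had 1971 FPKM of Rpl35a against 211 to 282 FPKM, and BD6 had 3.74 FPKM of Rpl10l against 0. The share of counts was not among them in any group.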

How the results depend on the processing

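No ribosomal protein gene was called in any comparison under any of the 12 planned settings, the 17 fits without 1 animal or the fit without V2 and V4. The deposited FPKM, with lengths not corrected, called 40, 113 and 35 genes in all in bond-disrupted against bonded, virgin against bonded and virgin against bond-disrupted animals, in place of 0, and 10, 4 and 4 members had an unadjusted p under 0.05. They reversed Rpl8 in the first comparison (log2 fold change −0.14), Rps26 in the second (1.06) and Rpl11 in the third (0.53). Least-squares removal of the diagonal effect gave 0, 5 and 5 members at that p. The median log2 fold change of the members ran from −0.05 to 0.04 in the first comparison, −0.20 to −0.005 in the second and −0.21 to −0.02 in the third when 1 animal was left out, with both ends of the last pair of ranges set by V4 and V2. Without Rpl35a, Rpl8 and Rpl6, a setting added later, the medians were −0.004, −0.10 and −0.08. Using the family number as a block gave medians of −0.004, −0.09 and −0.09 and changed no call. The mean share of the members was 2.36% of counts and 7.43% of summed FPKM, where short genes weigh more, and V2 was lowest and V4 highest under all 4 definitions. Fractional counts, low counts, relatives among the animals and 5 or 6 animals per group limit these values.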

Other observations

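Other housekeeping complexes were read beside the ribosome. Of 38 proteasome genes, 14 were lower in virgins than in bond-disrupted animals at an unadjusted p under 0.05, where 2.05% of all genes tested were, with a median log2 fold change of −0.15, and 0 reached an adjusted p under 0.1 in limma. BD1 (0.26) and the virgins V2 (−0.15) and V3 (−0.16) stood apart in the median deviation of these genes, and the count was 8 without any one of them, with medians of −0.10, −0.13 and −0.13, and 8 with family as a block or after least-squares removal of the length effect. The median was −0.09 after quantile normalization. Of 65 respiratory chain genes, 61 were lower in virgins than in bonded animals, where 48.2% of all genes tested were, with a median of −0.15, and 5 of them had an unadjusted p under 0.05, where 1.47% of all genes were lower at that level. The median deviation of these genes was −0.30 in V2 and −0.25 in V3, against 0.02 to 0.07 in the other virgins. Without V2 or without V3, 58 and 57 genes were lower, with medians of −0.10 and −0.11, and 0 had an unadjusted p under 0.05. That count was 1 without B5 or B6, 2 without B4, 3 without B1 or B2, 13 without BD1 and 0 with family as a block. It was 12 after quantile normalization, 12 when the 2 groups compared were fitted alone, 8 with the median-ratio factor, and 2, with a median of −0.09, after least-squares removal of the length effect. Genes of one complex move together in each animal, so these counts are not those of independent genes.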
